A study of Mus musculus with 8 samples.

Results

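The BRG1 chromatin remodeler subunits described here are 10 genes that encode parts of the mammalian SWI/SNF (BAF) complexes: *Smarca4*, *Smarca2*, *Smarcb1*, *Smarcc1*, *Smarcc2*, *Smarcd1*, *Smarcd2*, *Arid1a*, *Arid1b* and *Pbrm1*. They were chosen by symbol, by a rule that does not use their measured values, though with earlier results of these data known. All 10 were found among the 23284 symbols of both expression tables. RNA-seq covered 8 libraries of mouse hematopoietic progenitors, 4 of IdHPCs and 4 of LMPPs, in 2 control and 2 *Pcgf1*-KO libraries each. The question here was whether transcripts of the remodeler differed when PCGF1, a subunit of a variant Polycomb repressive complex 1, was depleted.

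All samples carry the strain label B6CBAF1/J, with the genotype given as Pcgf1 fl/fl for controls and Pcgf1 -/- for *Pcgf1*-KO. By the methods, *Pcgf1*-KO cells were ERT2-Cre:Pcgf1 fl/fl cells given 4-hydroxytamoxifen (4-OHT) for 4 days, which removes exons 2 to 7 of *Pcgf1*. LMPPs, lymphoid-primed multipotent progenitors sorted from bone marrow, were treated with 4-OHT in both groups, and their controls lacked the Cre transgene, so that the effects of Cre and of the deletion cannot be told apart. IdHPCs are LSK-derived progenitors (lineage-negative, Sca-1+, Kit+ marrow cells) that were transduced with *Id3* and kept in culture. The labels name TSt4 stromal cells with IL7, SCF and Flt3 ligand as the culture of both cell types. Mice were young adult females by the study's reporting summary. For another IdHPC experiment of the study the controls received ethanol in place of 4-OHT, and for the RNA-seq libraries the treatment of control IdHPCs was not found in the sources used here.

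BAF complexes use the energy of ATP to slide or eject nucleosomes, and so open promoters and enhancers to other factors. Each complex has 1 ATPase, BRG1 (*Smarca4*) or BRM (*Smarca2*). In canonical BAF and PBAF it sits on a core of SMARCB1, SMARCC and SMARCD proteins. Canonical BAF adds ARID1A or ARID1B to this core, and PBAF adds PBRM1 with other subunits. Trithorax-group remodelers of this kind are classical antagonists of Polycomb repression, and BRG1 is needed for several steps of blood and lymphocyte development.

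Between 9618849 and 25302206 reads on distinct exons stood behind each library. *Pcgf1* had 193 and 173 reads on exons 2 to 7 in the control IdHPCs and 15 in each *Pcgf1*-KO library. Among LMPPs, by label, control 1 had 84 reads there and *Pcgf1*-KO 1 had 76, whereas control 2 and *Pcgf1*-KO 2 by label had 0. A count of 0 allows up to 3 reads, which is 0.173 CPM (reads scaled to a common library total) in control 2 and 0.227 CPM in *Pcgf1*-KO 2, for counting error only. Each labelled LMPP group thus contained 1 library of each kind, and LMPP comparisons of the 10 genes are given both by label and by the reads on exons 2 to 7. The latter grouping coincides with the replicate number of the labels and cannot be told apart from it. *Pcgf1*-KO 2 of the IdHPCs also stood apart, with 27.1% of its reads falling on 3′-most exons over 6559 genes, against 21.7% to 23.4% in the other 3 IdHPC libraries. Of 9 progenitor markers in the tables, all were at 1 CPM or more in every LMPP library and 8 in every IdHPC library. The stromal feeder markers summed to 4172 and 4902 CPM in control IdHPCs and to 7026 and 9610 CPM in *Pcgf1*-KO IdHPCs, with 18 of 20 genes at 1 CPM or more in each library and *Lum* and *Dcn* at 0. In LMPPs the same 20 genes summed to 67.2 to 102 CPM. In LMPPs 11 mature myeloid markers summed to 334 and 335 CPM in the libraries with reads on *Pcgf1* exons 2 to 7 and to 151 and 156 CPM in those without, and in IdHPCs to at most 48.0 CPM. B cell markers summed to 71.7 and 80.7 CPM in control 1 and *Pcgf1*-KO 1 of the IdHPCs, to 182 and 258 CPM in control 2 and *Pcgf1*-KO 2, and to 15.5 to 26.5 CPM in LMPPs, and erythroid markers to at most 11.3 CPM. The part of stromal RNA in the values of IdHPCs, and of myeloid cells in those of LMPPs, was not tested, and in bulk RNA fewer cells of a type and less RNA per cell cannot be told apart.

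All 10 subunit genes were well expressed in every library, from 48.4 CPM for *Arid1b* to 382 CPM for *Arid1a*. Per kb of transcript (CPM divided by the exonic length of the annotated transcript with the longest coding sequence), the highest mean in IdHPCs was that of *Smarcc1*, at 50.9 ± 11.7 (SD, n = 4 libraries of both genotypes). *Smarcd2* with 49.8 ± 3.4, *Smarca4* with 47.5 ± 2.0 and *Smarcb1* with 44.9 ± 4.8 CPM per kb followed, and these 4 overlapped in their ranges. *Smarcc2* (34.6 ± 3.0), *Arid1a* (31.0 ± 7.6), *Smarcd1* (24.1 ± 3.1), *Pbrm1* (23.4 ± 5.5) and *Smarca2* (18.2 ± 2.4) came next, each overlapping with its neighbor. *Arid1b* was lowest in IdHPCs, at 6.52 ± 1.72 CPM per kb, below all libraries of every other subunit. In LMPPs *Smarcd2* led with 65.4 ± 4.1 CPM per kb, clear of *Smarca4* with 52.2 ± 1.4, and *Smarcb1* (44.2 ± 2.8), *Smarcc2* (43.2 ± 4.6), *Arid1a* (41.3 ± 5.7) and *Smarcc1* (40.9 ± 3.2) overlapped below it. *Pbrm1* with 19.8 ± 1.4, *Smarcd1* with 17.1 ± 1.1, *Smarca2* with 16.5 ± 1.2 and *Arid1b* with 14.0 ± 1.8 CPM per kb made up the low end. By these values *Smarcd2*, *Smarca4* and *Smarcb1* were among the first 4 and *Smarca2* and *Arid1b* were the last in both cell types. Distinct rows outnumbered the exons of the transcript in *Smarca4* (36 against 34), *Smarcb1* (10 against 9) and *Smarcd2* (14 against 13). They did so too in *Smarca2*, *Smarcc2* and *Pbrm1*, but not in the other subunit genes. Overlapping exons may thus be summed more than once, which was not corrected. The order of genes with close values, as of *Smarcb1* in LMPPs, is therefore not settled.

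**Figure D1:**
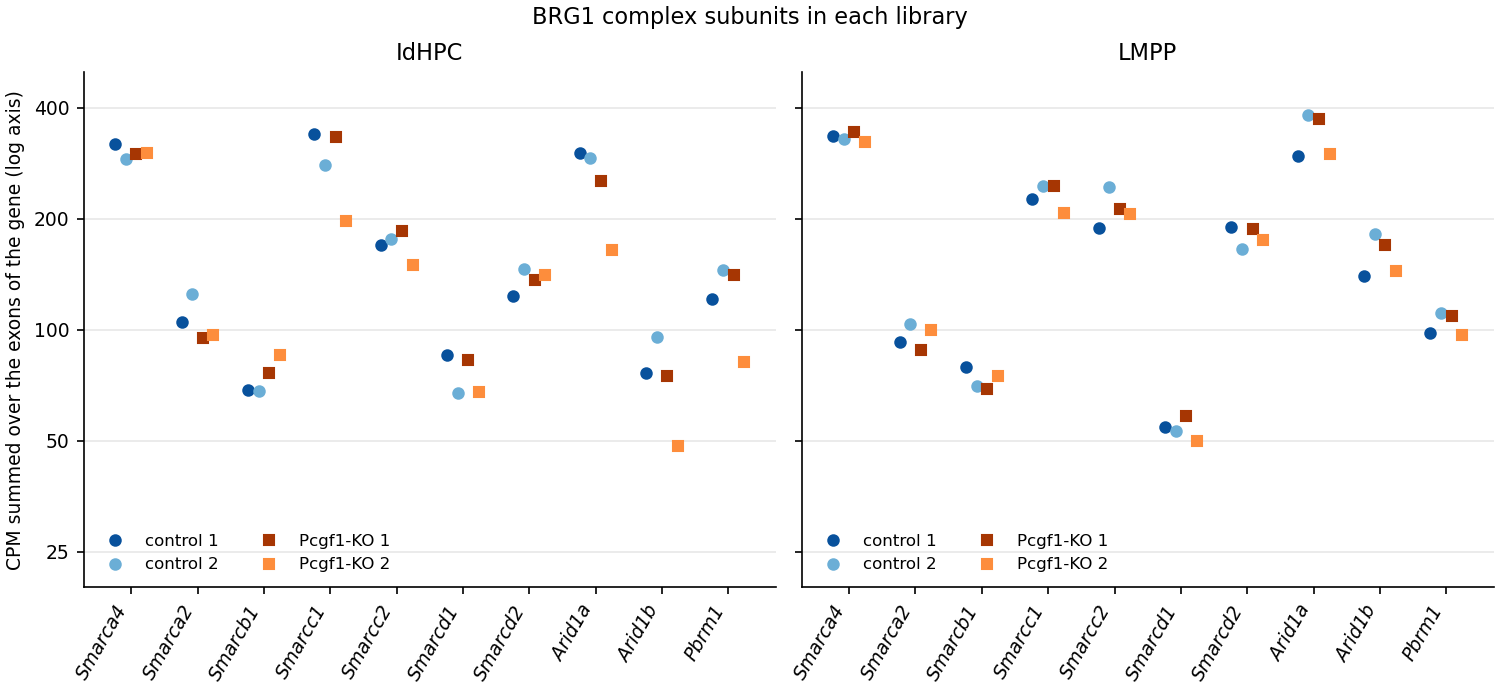
CPM summed over the exons of each subunit gene (log axis) in each of the 4 IdHPC libraries (left) and 4 LMPP libraries (right), with controls as circles and libraries labelled *Pcgf1*-KO as squares. *Smarca4* lies between 290.0 and 343 CPM in all 8 libraries, and *Pcgf1*-KO 2 of the IdHPCs has the lowest level of *Smarcc1*, *Smarcc2*, *Arid1a*, *Arid1b* and *Pbrm1*.

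None of the 10 subunit genes passed the test in any comparison (limma on log2(CPM + 1), Benjamini-Hochberg adjusted p under 0.05, 2 libraries against 2). In IdHPCs this stood against 0.53% of the 12273 genes tested, 33 higher and 32 lower in *Pcgf1*-KO. In LMPPs it stood against 0% of 12153 genes by label, where 2 genes had an unadjusted p under 0.05, and against 17.2% by reads on *Pcgf1* exons 2 to 7. None of the 10 had an unadjusted p under 0.05 in these fits, where 1780 of 12273 genes did in IdHPCs and 3576 of 12153 in LMPPs by reads, and none was called with edgeR's exactTest, edgeR's quasi-likelihood test or DESeq2 on the recovered reads. The levels of the groups did not overlap for 4 of the 10 genes in IdHPCs (46.9% of all genes tested), for 0 of 10 by label in LMPPs (12.2%, of which 5.92% higher and 6.3% lower) and for 4 of 10 by reads on exons 2 to 7 (56.6%), so that these shares were near or below those of all genes. The median log2 fold change over the 10 genes was -0.15 in IdHPCs, where that of all genes tested was 0.0056, and -0.024 by label and -0.011 by reads in LMPPs, where those of all genes were -0.00075 and -0.016. These medians changed sign when 1 library was left out. They ran from -0.22 to 0.055 in IdHPCs, with 0.055 without *Pcgf1*-KO 2, and in LMPPs from -0.11 to 0.061 by label and from -0.091 to 0.080 by reads. On the 3′ exon alone the IdHPC median was 0.199, where that of all genes was 0.144.

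**Figure D2:**
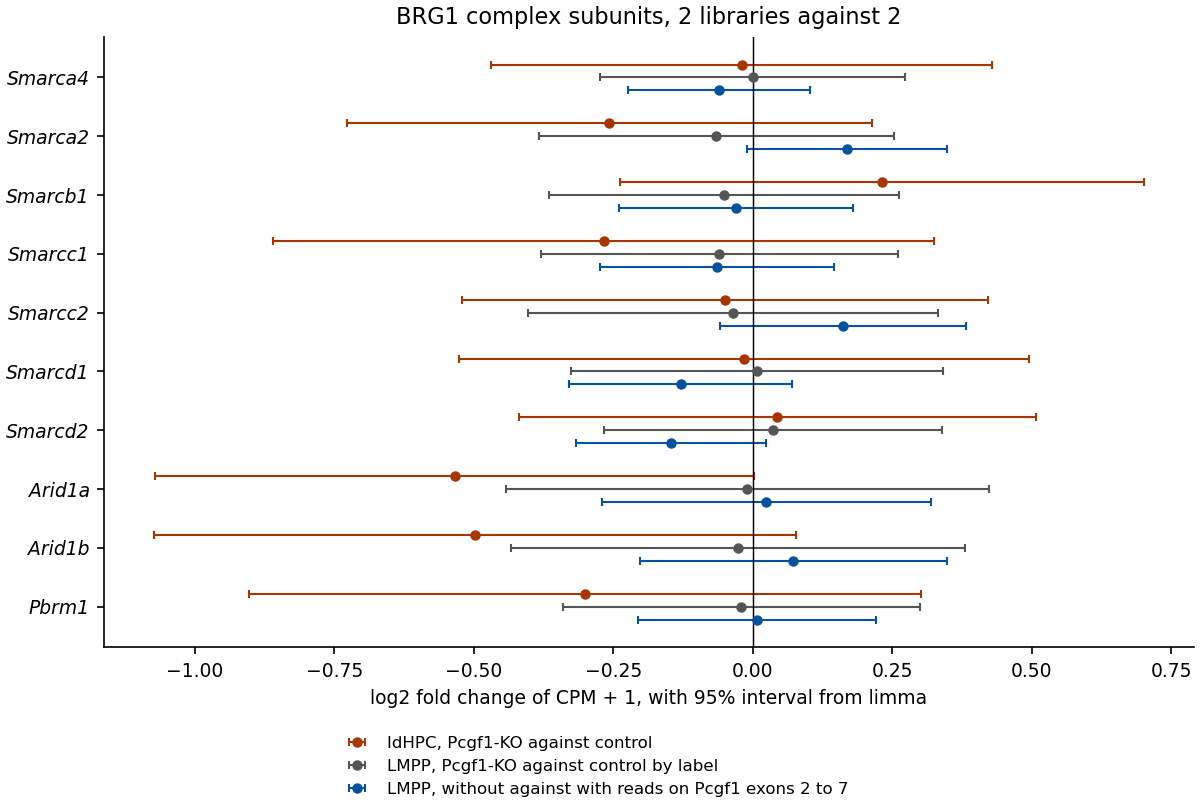
Log2 fold change of CPM + 1 with its 95% interval from limma for each subunit gene in the 3 comparisons, IdHPC *Pcgf1*-KO against control, LMPP *Pcgf1*-KO against control by label, and LMPP libraries without against those with reads on *Pcgf1* exons 2 to 7. All 30 intervals include 0, the widest are those of IdHPCs, and *Arid1a* in IdHPCs reaches from -1.07 to 0.0026.

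*Smarca4* (chr9:21420613-21508674, mm9, plus strand) encodes BRG1, the ATPase that moves nucleosomes. It measured 320.2 and 290.0 CPM in control 1 and control 2 of the IdHPCs and 299 and 302 CPM in *Pcgf1*-KO 1 and 2, so that both *Pcgf1*-KO libraries lay between the controls. The log2 fold change was -0.020 (SE 0.20, 95% interval -0.47 to 0.43, adjusted p = 0.971). LMPP levels were 337 CPM (control 1) and 329 CPM (control 2) against 343 CPM (*Pcgf1*-KO 1) and 323 CPM (*Pcgf1*-KO 2), by label. By label the log2 fold change was -0.00057 (interval -0.27 to 0.27). By reads on exons 2 to 7 both libraries without reads were below both with reads, by a log2 fold change of -0.061 (interval -0.22 to 0.10, adjusted p = 0.637).

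*Smarca2* (chr19:26679650-26852811, mm9, plus strand) encodes BRM, the alternative ATPase of the complex. Control IdHPCs had 105 and 125 CPM, and *Pcgf1*-KO IdHPCs had 94.8 and 97.1 CPM. Both *Pcgf1*-KO libraries were below both controls, but the difference of -0.26 on the log2 scale (SE 0.21, interval -0.73 to 0.21, adjusted p = 0.603) was within the error of the fit. LMPP levels by label were 92.7 CPM (control 1), 104 CPM (control 2), 88.3 CPM (*Pcgf1*-KO 1) and 99.6 CPM (*Pcgf1*-KO 2). *Smarca2* was the one subunit gene with higher levels in both LMPP libraries without reads on *Pcgf1* exons 2 to 7, by 0.17 on the log2 scale (SE 0.080, interval -0.010 to 0.35, adjusted p = 0.196), a background of 26.7% of genes. By label its log2 fold change was -0.066 (interval -0.38 to 0.25).

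*Smarca2* reads were unevenly spread over its exons, and the spread differed between IdHPCs and LMPPs more than the summed level did. The annotation (GENCODE on NCBIM37) has a long transcript of 33 exons and a short one, which begins downstream of exon 27 with 3 exons of its own and joins the long one at exon 28. The rows of the tables carry no coordinates, and the 36 distinct rows of *Smarca2* were assigned to these exons by their order and number. The exons on either side of the junction are shown because the short transcript joins there. Both are coding in the long transcript, and capitals in exon 28 mark the annotated start codon of the short one, at base 28 of the exon. Exon 27 is chr19:26795219-26795437 and exon 28 is chr19:26826314-26826531 (NCBIM37, plus strand, 219 and 218 bases).
Smarca2 exon 27: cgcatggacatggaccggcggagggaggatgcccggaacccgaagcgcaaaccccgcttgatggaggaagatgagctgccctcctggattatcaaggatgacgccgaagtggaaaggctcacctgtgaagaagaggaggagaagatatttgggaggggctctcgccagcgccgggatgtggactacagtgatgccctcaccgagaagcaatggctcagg
Smarca2 exon 28: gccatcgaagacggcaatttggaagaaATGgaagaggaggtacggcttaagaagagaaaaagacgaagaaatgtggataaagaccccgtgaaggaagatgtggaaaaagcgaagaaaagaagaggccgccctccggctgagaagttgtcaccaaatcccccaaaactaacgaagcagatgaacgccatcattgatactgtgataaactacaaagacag

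Exon 28 had 32.02 and 42.5 CPM per kb in control IdHPCs and 31.6 and 35.8 CPM per kb in *Pcgf1*-KO IdHPCs (166 to 323 reads). In LMPPs, by label, it had 16.2 and 14.3 (control) against 15.7 and 13.5 CPM per kb (*Pcgf1*-KO), from 39 to 54 reads. Exons 2 to 24 differed little in comparison, with 9.53 to 17.9 CPM per kb in IdHPCs and 14.5 to 19.7 CPM per kb in LMPPs. Within a library, the ratio of exon 28 to exons 2 to 24 was thus 2.06 and 2.38 in control IdHPCs, 2.204 and 3.76 in *Pcgf1*-KO IdHPCs, and 0.725 to 1.12 in the 4 LMPP libraries. Over exons 28 to 32 together, the ratio to exons 2 to 24 was 1.79 and 2.23 in control IdHPCs and 2.08 and 3.93 in *Pcgf1*-KO IdHPCs. In LMPPs it was 0.980 to 1.68, so that the gap between the cell types was much narrower than for exon 28 alone. The highest value of either ratio belonged to *Pcgf1*-KO 2, the library with the most reads near 3′ ends. IdHPCs and LMPPs did not overlap in either ratio, with or without it. Exons 25 to 27 lie before the first exon of the short transcript and were also higher than exons 2 to 24 in IdHPCs, by a ratio of 1.91 to 2.90, against 1.23 to 1.74 in LMPPs. They had 37.4 and 39.8 CPM per kb in control and 27.3 and 27.6 CPM per kb in *Pcgf1*-KO IdHPCs. Exon 27 alone had 29.7 to 44.4 CPM per kb in IdHPCs and 18.5 to 22.1 CPM per kb in LMPPs, so that the higher level in IdHPCs was already present before the junction. The 3 first exons of the short transcript held 7 to 14 reads in IdHPC libraries and 0 to 3 in LMPP libraries, or up to 1.90 CPM per kb. In *Smarca4*, the ratio of the summed CPM of rows 28 to 35 to that of rows 2 to 24, of its 36 distinct exon rows, was lower in IdHPC controls (0.452 and 0.442) and *Pcgf1*-KO 1 (0.414) than in LMPPs (0.567 to 0.767), while *Pcgf1*-KO 2 had 1.12. This was the opposite order to that of *Smarca2* in all IdHPC libraries but *Pcgf1*-KO 2. The *Smarca4* ratio is of summed CPM and the *Smarca2* ratios are per kb, so only their order across libraries is set side by side. The difference in *Smarca2* was noticed in the profile, and neither a test nor a share of other genes is given for it. The tables were normalized separately, so levels set across them are values side by side, whereas ratios within a library do not depend on the library total.

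**Figure D3:**
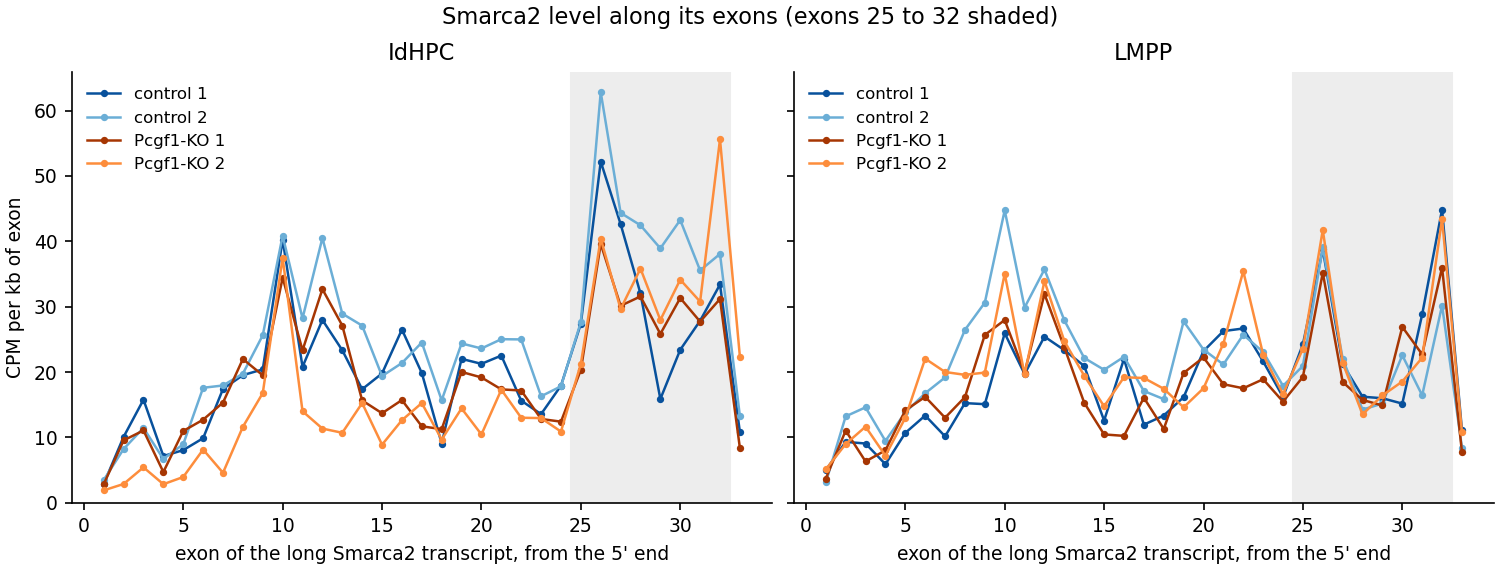
*Smarca2* CPM per kb of exon (y axis) along the 33 exons of its long transcript, from the 5′ end (x axis), with 1 line per library, IdHPCs left and LMPPs right, exons 25 to 32 shaded. Exons 25 to 27 together lie above exons 2 to 24 by a ratio of 1.91 to 2.90 in IdHPCs, and exon 28 lies at 31.6 to 42.5 CPM per kb in IdHPCs and 13.5 to 16.2 CPM per kb in LMPPs.

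*Smarcb1* (chr10:75359514-75384362, mm9, minus strand) encodes the core subunit SNF5, which contacts the nucleosome and is lost in rhabdoid tumors. It had 68.8 and 68.1 CPM in control IdHPCs and 76.2 and 85.2 CPM in *Pcgf1*-KO IdHPCs. It was the one subunit gene with both *Pcgf1*-KO libraries above both controls, which held for 25.6% of all genes, and the log2 fold change of 0.23 (SE 0.21, interval -0.24 to 0.70, adjusted p = 0.646) was within the error. LMPP levels by label were 79.2 CPM (control 1), 70.2 CPM (control 2), 69.1 CPM (*Pcgf1*-KO 1) and 74.8 CPM (*Pcgf1*-KO 2), which overlapped in both groupings. The log2 fold changes were -0.052 by label and -0.030 by reads on exons 2 to 7.

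*Smarcc1* (chr9:110034541-110142682, plus strand) and *Smarcc2* (chr10:127896292-127927229, plus strand) encode the paired scaffolds BAF155 and BAF170, on which the other subunits are assembled. *Smarcc1* had 340.2 and 280.4 CPM in control IdHPCs and 334 and 197 CPM in *Pcgf1*-KO 1 and 2. *Pcgf1*-KO 1 lay between the controls and *Pcgf1*-KO 2 below both, and the log2 fold change was -0.27 (SE 0.27, interval -0.86 to 0.33, adjusted p = 0.677). *Smarcc2* had 169 and 177 CPM in control IdHPCs and 186 and 150.4 CPM in *Pcgf1*-KO IdHPCs, 1 above and 1 below both controls, with a log2 fold change of -0.050 (interval -0.52 to 0.42). In LMPPs *Smarcc1* ranged from 208 to 246 CPM and *Smarcc2* from 189 to 244 CPM, and in both groupings the libraries overlapped. The log2 fold change of *Smarcc2* by reads on exons 2 to 7 was 0.16 (interval -0.059 to 0.38, adjusted p = 0.318), and that of *Smarcc1* was -0.064. By label they were -0.035 and -0.060.

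*Smarcd1* (chr15:99532718-99544426, plus strand) and *Smarcd2* (chr11:106124493-106134286, minus strand) encode BAF60A and BAF60B, alternative subunits that link the complex to transcription factors, and BAF60B is known for its need in granulocyte development. *Smarcd1* had 85.5 and 67.4 CPM in control IdHPCs and 83.0 and 67.9 CPM in *Pcgf1*-KO IdHPCs, and *Smarcd2* had 124 and 146 CPM against 137 and 141 CPM. In both genes the *Pcgf1*-KO libraries lay within the range of the controls, and the log2 fold changes were -0.016 (interval -0.53 to 0.49) and 0.044 (interval -0.42 to 0.51). In LMPPs *Smarcd1* had 54.5 and 58.4 CPM in the libraries with reads on *Pcgf1* exons 2 to 7 and 53.1 and 49.97 CPM in those without, and *Smarcd2* had 189.6 and 188 CPM against 165 and 175 CPM. With *Smarca4*, these were the 3 subunit genes whose libraries without reads were below both with reads, which held for 29.9% of all genes. Neither passed the test, with log2 fold changes of -0.13 (SE 0.090, adjusted p = 0.383) for *Smarcd1* and -0.15 (SE 0.076, adjusted p = 0.236) for *Smarcd2*. By label the values were 0.0068 and 0.036.

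*Arid1a* (chr4:133234923-133312684, minus strand) and *Arid1b* (chr17:4994332-5347656, plus strand) encode BAF250a and BAF250b, the large DNA-binding subunits of which canonical BAF has 1 or the other. *Pbrm1* (chr14:31832324-31934778, plus strand) encodes BAF180, the subunit with several bromodomains that marks PBAF. *Arid1a* had 303 and 292 CPM in control IdHPCs, 254 CPM in *Pcgf1*-KO 1 and 165 CPM in *Pcgf1*-KO 2. *Arid1b* measured 76.3 and 95.7 CPM (controls) against 75.0 and 48.4 CPM (*Pcgf1*-KO 1 and 2), and *Pbrm1* had 121 and 145 CPM against 141 and 82.0 CPM. *Arid1a* and *Arid1b*, with *Smarca2*, were the 3 subunit genes for which each *Pcgf1*-KO library lay under each control, which held for 21.3% of all genes, and in each of the 3 ARID and PBRM genes *Pcgf1*-KO 2 was far below the other 3 libraries. The log2 fold changes were the lowest among the 10 genes, -0.53 for *Arid1a* (SE 0.24, interval -1.07 to 0.0026, adjusted p = 0.347), -0.50 for *Arid1b* (SE 0.26, interval -1.07 to 0.078, adjusted p = 0.414) and -0.30 for *Pbrm1* (SE 0.27, interval -0.90 to 0.30, adjusted p = 0.640). They rested on *Pcgf1*-KO 2. Without it they were -0.23, -0.19 and 0.087 (adjusted p = 0.734, 0.843 and 0.940), and without *Pcgf1*-KO 1 they were -0.84, -0.81 and -0.69 (adjusted p = 0.037, 0.064 and 0.078), so that *Arid1a* passed the test in that fit. There *Pcgf1*-KO 2 stood alone and was assumed to vary like the 2 controls, from which the spread was taken, and 825 of all genes were called (6.8%).

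The lower values of *Pcgf1*-KO 2 went with a gradient along the gene. The exons of each gene were divided by number into a 5′ and a 3′ part and compared with the mean of the 2 controls. For *Arid1a*, the first 10 of its 20 exons were lower by a log2 difference of -2.05 in *Pcgf1*-KO 2, while the last exon, which holds the 3′ end, differed by -0.043. In counts, the 3′-most exon of *Arid1a* took 68.8% of its CPM in *Pcgf1*-KO 2, against 37.2% in *Pcgf1*-KO 1 and 37.5% and 41.3% in the controls. *Arid1b* showed the same form, with -1.85 on the 5′ part and -0.19 on the last exon, and so did *Pbrm1*, with -1.84 and 0.22. *Smarcc1* had -1.44 and 0.10. *Smarca4* had -0.80 on its 5′ part and 1.16 on its last exon, and its sum was within the range of the controls. The 5′ part was lower relative to the controls than the 3′ part in 10 of 10 subunit genes in *Pcgf1*-KO 2, where this held for 93.3% of 6559 genes, and in 1 of 10 in *Pcgf1*-KO 1, where it held for 29.4%. Both shares were read against these backgrounds, and nothing particular to the subunit genes is taken from them. In *Pcgf1*-KO 1, the log2 differences of the 5′ parts lay between -0.19 and 0.25 over the 10 genes, and those of the 3′ exons between -0.52 and 0.42. When only the 3′ exon was summed, an alternative chosen after seeing the data, the log2 fold changes of *Arid1a*, *Arid1b* and *Pbrm1* in IdHPCs became -0.17, -0.23 and 0.083, and that of *Smarca4* became 0.56 (adjusted p = 0.441).

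**Figure D4:**
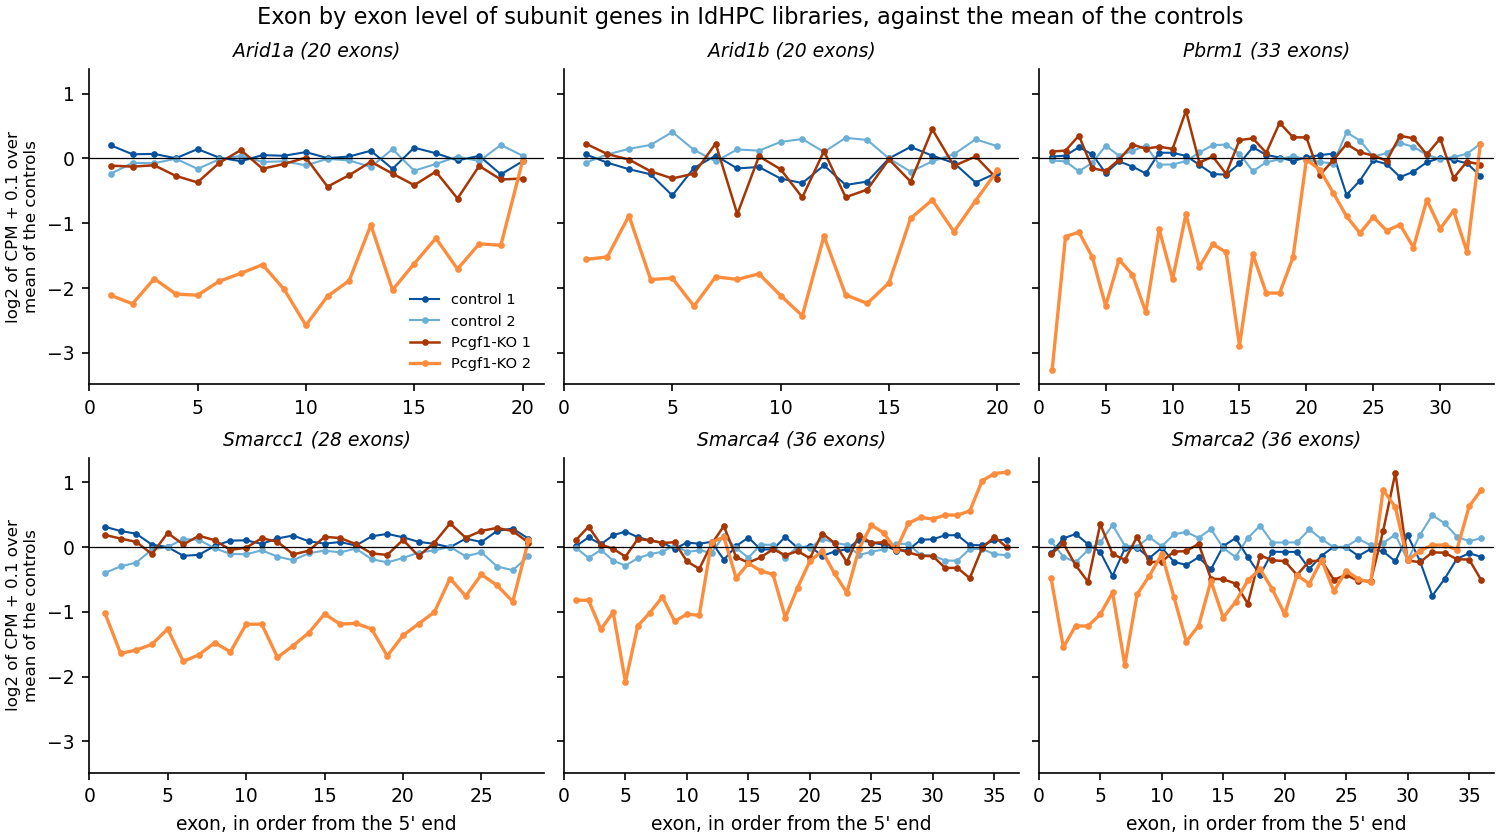
Log2 of CPM + 0.1 over the mean of the 2 control IdHPCs (y axis) for each distinct exon, in order from the 5′ end (x axis), of 6 subunit genes, with 1 line per IdHPC library. *Pcgf1*-KO 2 runs far below the other libraries on the 5′ side and ends between -0.19 and 1.16 on the last exon, whereas *Pcgf1*-KO 1 stays near the controls.

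In LMPPs the ARID and PBRM genes, like *Smarcc1*, *Smarcc2* and, in reverse, *Smarcb1*, were split in a way that matched neither grouping. By label, control 1 and *Pcgf1*-KO 2 had 296 and 299 CPM of *Arid1a*, but control 2 and *Pcgf1*-KO 1 had 382 and 373 CPM. *Arid1b* had 139.9 and 145 CPM against 182 and 169.9 CPM, and *Pbrm1* had 97.8 and 96.9 CPM against 111 and 109 CPM in the same order. *Smarcc1* had 227 and 208 CPM against 245 and 246 CPM, and *Smarcc2* had 189 and 207 CPM against 244 and 213 CPM. *Smarcb1* went the other way, with 79.2 and 74.8 CPM against 70.2 and 69.1 CPM. The share of all genes split like this was not computed. The first 10 exons of *Arid1a* held 27.6% and 29.2% of its CPM in control 1 and *Pcgf1*-KO 2 and 39.2% and 35.9% in control 2 and *Pcgf1*-KO 1. Over 7033 genes the 3′-most exon took at least 21.4% of the reads in the former and at most 20.1% in the latter. Its part in the levels was not tested. Each labelled group and each group by reads contained 1 library of either kind. The log2 fold changes of *Arid1a*, *Arid1b* and *Pbrm1* were thus close to 0. They ran from -0.027 to -0.010 by label and from 0.0079 to 0.073 by reads, with intervals no wider than -0.44 to 0.42.

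The ratio of related or alternative subunits within a library does not depend on the library total. Its size per kb does depend on the rows summed, which outnumber the exons of the transcript in some of these genes, as stated above. *Smarcd2* exceeded *Smarcd1* per kb by 1.66 and 2.48 times in control IdHPCs and by 1.89 and 2.38 times in *Pcgf1*-KO IdHPCs, but by 3.58 to 4.03 times in LMPPs. *Arid1b* stood to *Arid1a* as 0.182 and 0.237 in control IdHPCs and 0.213 and 0.212 in *Pcgf1*-KO IdHPCs, and as 0.329 to 0.349 in LMPPs. *Smarcc2* to *Smarcc1* was 0.572 to 0.876 in IdHPCs and 0.958 to 1.14 in LMPPs. *Pbrm1* to *Arid1a* was 0.627 to 0.868 in IdHPCs and 0.454 to 0.515 in LMPPs. This pair sets transcripts of a PBAF subunit against those of 1 of the 2 ARID subunits of canonical BAF, and does not measure the complexes. *Smarca2* to *Smarca4* was 0.348 to 0.474 in IdHPCs and 0.282 to 0.346 in LMPPs, so that the ranges nearly touched. In all 5 pairs the 4 IdHPC and 4 LMPP libraries did not overlap (exact permutation test over libraries, 2-sided, p = 0.0286, the smallest p that 4 against 4 allows, and 0.0286 after Benjamini-Hochberg adjustment over the 5 pairs). The same held for 49.9% of all pairs among 8680 genes with a mean of at least 10 CPM, so that a lack of overlap was common between these cell types. On the 3′ exon alone the cell types overlapped for *Smarcc2* to *Smarcc1*, with 0.280 to 0.512 in IdHPCs and 0.443 to 0.591 in LMPPs, the highest IdHPC value being that of *Pcgf1*-KO 2, and not for the other 4 pairs. With all exons summed, the difference of LMPPs from IdHPCs was largest for *Smarcd2* to *Smarcd1*, at 1.84-fold, or 0.88 on the log2 scale, followed by 0.70 for *Arid1b* to *Arid1a*, -0.65 for *Pbrm1* to *Arid1a*, 0.61 for *Smarcc2* to *Smarcc1* and -0.27 for *Smarca2* to *Smarca4*. On the 3′ exon alone these were 0.70, 0.69, -0.73, 0.55 and -0.55. The cell type coincided with the table and with the amount of stromal RNA, from which it cannot be told apart. Differences between *Pcgf1*-KO and control IdHPCs in these ratios lay between -0.24 and 0.23 on the log2 scale. They were not tested, and the 2 controls themselves differed by 1.66 against 2.48 in *Smarcd2* to *Smarcd1*.

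**Figure D5:**
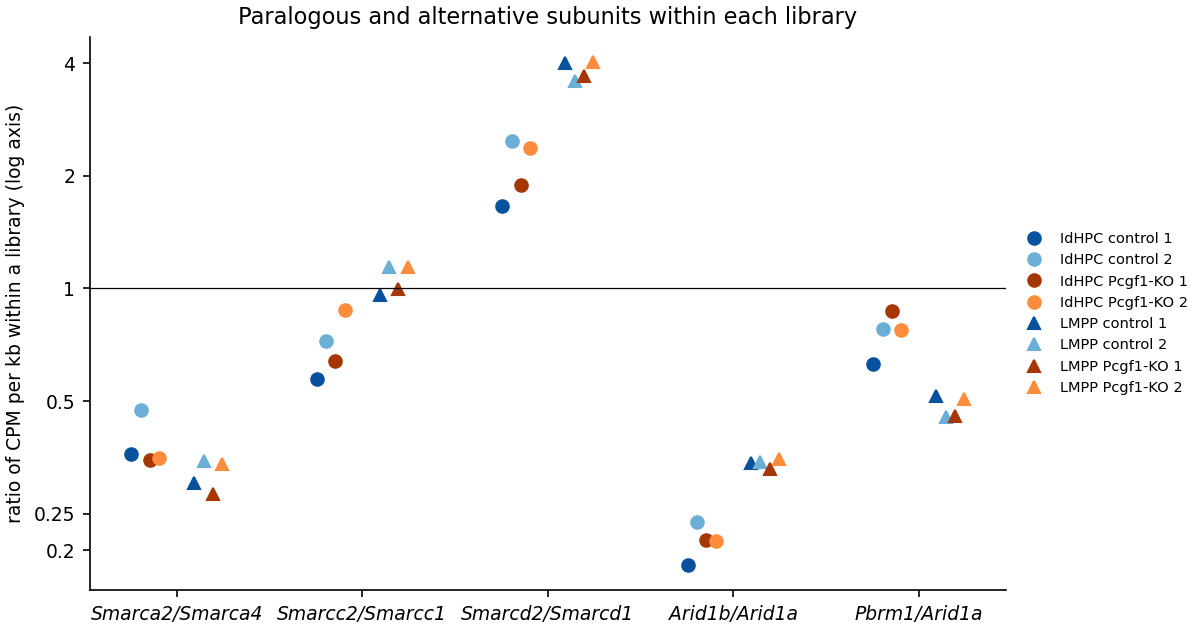
Ratio of CPM per kb between alternative subunits within each library (log axis), circles for IdHPCs and triangles for LMPPs, colored by library. *Smarcd2*/*Smarcd1* lies at 1.66 to 2.48 in IdHPCs and at 3.58 to 4.03 in LMPPs, and with all exons summed the cell types do not overlap in any pair.

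Other subunits of BAF complexes were not called in IdHPCs either. Of 23 further subunit genes listed, 20 had a row and 17 were tested, and 0 were called in IdHPCs with limma, edgeR's exactTest, edgeR's quasi-likelihood test or DESeq2, while 3 had an unadjusted p under 0.05 in limma (1780 of 12273 genes in all). Their median log2 fold change was -0.048. The highest log2 fold changes, neither past the threshold, were those of *Smarcd3*, the third SMARCD paralog, with 3.67 and 3.24 CPM in control and 5.79 and 7.53 CPM in *Pcgf1*-KO IdHPCs (log2 fold change 0.77, SE 0.29, adjusted p = 0.2498), and *Bcl7c*, with 29.0 and 23.6 CPM against 39.9 and 44.5 CPM (0.67, SE 0.24, adjusted p = 0.229). In both genes the groups did not overlap, as in 25.6% of all genes in this direction. In either direction the groups did not overlap in 7 of these 17 genes, against 46.9% of all genes. Without *Pcgf1*-KO 2 the log2 fold changes of *Smarcd3* and *Bcl7c* were 0.61 and 0.59. *Ss18l1* (-0.79), *Gltscr1* (-0.46) and *Bcl11a* (-0.39) were at the other end, all with adjusted p above 0.3. By label 0 of 17 were called in LMPPs, none at an unadjusted p under 0.05, and 0 by the other 3 tools.

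By reads on *Pcgf1* exons 2 to 7, 2 of the 17 were called in LMPPs, a share below the 17.2% of all genes. *Bcl11a*, a zinc finger protein of lymphoid progenitors that associates with BAF, was lower, with 98.4 and 100.5 CPM in the libraries with reads and 76.3 and 72.9 CPM in those without (log2 fold change -0.41, SE 0.080, adjusted p = 0.0064), and its call was lost on the 3′ exon alone (-0.39, adjusted p = 0.217). *Dpf1*, a PHD finger subunit best known from neurons, was higher but scarce, with 0.221 and 0.549 CPM against 1.78 and 1.74 CPM (1.01, SE 0.21, adjusted p = 0.010), and its call was lost without the library labelled control 2 (adjusted p = 0.058). *Phf10*, a PBAF subunit, had 46.2 and 43.4 CPM with reads and 58.2 and 50.8 CPM without (0.27, adjusted p = 0.0903). It was called with edgeR's exactTest (adjusted p = 0.039) and in no other fit, and on the 3′ exon alone the value was -0.037. *Gltscr1* was called only without the library labelled *Pcgf1*-KO 1 (adjusted p = 0.015).

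Of 22 tested ATPases of other remodeler families 0 were called in IdHPCs with limma, and 0 with the 3 count tests, while 6 had an unadjusted p under 0.05 (1780 of 12273 genes in all). Here 21 of 22 had a log2 fold change below 0, against 49.5% of all genes, with a median of -0.40. In 15 of 22 both *Pcgf1*-KO libraries were lower than either control, which held for 21.3% of all genes. *Chd1* (-0.75), *Atrx* (-0.73) and *Chd6* (-0.71) were lowest and *Rad54l* (0.049) was highest. This again moved with *Pcgf1*-KO 2, since the median was -0.18 without it, with 19 of 22 below 0, and -0.68 without *Pcgf1*-KO 1, where *Atrx*, *Btaf1*, *Chd1*, *Rad54l2* and *Shprh* were called lower, as were 591 of 12125 genes in that fit. With the 3′ exon alone, 9 were below 0 and the median was 0.098. By reads on exons 2 to 7 in LMPPs 3 of 22 were called, again a share below the 17.2% of all genes. *Chd7*, a CHD-family remodeler, was higher (13.6 and 11.7 CPM with reads, 19.6 and 17.8 CPM without, log2 fold change 0.53, adjusted p = 0.019). *Chd3*, an ATPase of the NuRD complex, was also higher (192 and 219 CPM with reads, 302 and 261 CPM without, 0.45, adjusted p = 0.010), and *Btaf1*, which removes TBP from DNA, was lower (-0.38, adjusted p = 0.034). The calls of *Chd7* and *Chd3* were lost without the library labelled control 2, that of *Chd7* also without the library labelled *Pcgf1*-KO 1, and that of *Btaf1* without either library labelled *Pcgf1*-KO. All 3 calls were also lost on the 3′ exon alone, with log2 fold changes of 0.34 for *Chd7*, 0.30 for *Chd3* and -0.35 for *Btaf1*, those of *Chd7* and *Btaf1* without the 3′ exon, those of *Chd3* and *Btaf1* without the mean-variance trend, and that of *Btaf1* without a filter and with DESeq2. Over all 17 settings *Btaf1* was called in 10, *Chd7* in 13 and *Chd3* in 14, and of the genes not called in the first place *Chd2* was called in 2 and *Ercc6* in 1. By label 0 of 22 were called, with none at an unadjusted p under 0.05.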

How the data were processed

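Poly(A) RNA of 8 libraries was sequenced, and the authors deposited CPM values (counts scaled to library size) for each exon row, in 1 table for IdHPCs and 1 for LMPPs. The methods name HISAT2 and mm9, then Rsubread and edgeR, whereas the submitters' processing notes list TopHat2 2.0.13, mm9 and edgeR. All values were whole multiples of 1 read (tolerance 0.01 reads, 100% of values), which gave the reads behind them. Whether a read that spans exons was counted on each is not given in the sources used here.

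Rows equal to the row before, with the same symbol, in all 8 libraries were dropped (58624 of 220394 rows with reads), and the rest were summed per symbol. 1 read was worth 0.0287 to 0.0757 CPM. Genes with a CPM of at least 1 in at least 1 of 4 libraries were tested on log2(CPM + 1) with limma 3.58.1 (R 4.3.3, mean-variance trend, Benjamini-Hochberg adjustment), each table alone. Fold changes on this scale understate those of low genes. Count tests on the recovered reads (edgeR 4.0.16 exactTest and quasi-likelihood, DESeq2 1.42.0) were alternatives, with other filters, scaling, exons and libraries. Counts were simulated at a dispersion of 0.02 with 200 well-covered genes changed by 2 on the log2 scale. There limma recovered 200, with 9 unchanged genes called among 12192 for IdHPCs and 13 among 12116 for LMPPs. Changes as small as those of the subunit genes, and a library with more reads near 3′ ends, were not simulated. Transcript lengths and exon sequences came from NCBIM37 with GENCODE vM1. The members, gene lists and tests were chosen with earlier results of these data known. All subunit genes were named, with called genes of the 2 other lists and otherwise genes among the 3 largest rises and falls. The study describes its RNA-seq replicates as biologically independent, and the labels do not name the animals or cultures behind them.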

Additional observations from a re-analysis of the deposited data

Results flagged for a closer look

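*Smarca2* had a log2 fold change of -0.26 in IdHPCs, where both *Pcgf1*-KO libraries were below both controls, and of 0.17 in LMPPs, where both libraries without reads on *Pcgf1* exons 2 to 7 were above both with reads. *Bcl7c* differed in the opposite sense, with 0.67 in IdHPCs and -0.099 in LMPPs by reads, and *Ss18l1* had -0.79 and 0.25. In each of these genes every library of a cell type moved one way and those of the other cell type the opposite way, which held for 11.4% of the 11248 genes tested in both. The genes are listed for this pattern, and the difference between the cell types was not tested.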

How the results depend on the processing

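Each group held 2 libraries, which limits every interval given. The 0 calls among the 10 subunit genes held under every alternative run in LMPPs, and in IdHPCs under all but 1, since *Arid1a* was called without *Pcgf1*-KO 1 (0 to 1 calls when 1 library was left out). Of the alternative values of single subunit genes 422 kept direction and side of the threshold, 57 changed sign and 1 passed the threshold. The cause was not tested. The ratio of *Smarca2* to *Smarca4* differed between LMPPs and IdHPCs by -0.55 on the log2 scale with the 3′ exon only, against -0.27.

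With the 3′ exon only, IdHPC log2 fold changes became 0.56 for *Smarca4*, 0.19 for *Smarca2*, 0.091 for *Smarcc1*, 0.42 for *Smarcc2*, 0.21 for *Smarcd1* and 0.083 for *Pbrm1*, while the median of all genes became 0.144. Without the 3′ exon *Smarcd2* became -0.090. By label in LMPPs, the 3′ exon only gave 0.097 for *Smarca4*, 0.011 for *Smarcb1*, 0.0057 for *Smarcc2* and 0.0034 for *Arid1b*. Without it the values were -0.014 for *Smarcd1*, 0.023 for *Arid1a* and 0.0027 for *Pbrm1*. *Smarca4* by label was 0.0024 with median-ratio rescaling, 0.0048 with edgeR exactTest and with quasi-likelihood, 0.0038 with DESeq2 and 0.0069 over all listed exons. By reads the 3′ exon only gave 0.13 for *Smarcb1*, -0.10 for *Arid1a*, -0.0059 for *Arid1b* and -0.10 for *Pbrm1*.

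Leaving out 1 library, IdHPC values ran from -0.091 to 0.051 for *Smarca4*, -0.65 to 0.11 for *Smarcc1*, -0.20 to 0.10 for *Smarcc2*, -0.19 to 0.15 for *Smarcd1*, -0.073 to 0.16 for *Smarcd2* and -0.69 to 0.087 for *Pbrm1*. By label they ran from -0.045 to 0.044 for *Smarca4*, -0.15 to 0.021 for *Smarca2*, -0.14 to 0.034 for *Smarcb1*, -0.18 to 0.060 for *Smarcc1*, -0.22 to 0.15 for *Smarcc2*, -0.10 to 0.12 for *Smarcd1*, -0.062 to 0.13 for *Smarcd2*, -0.19 to 0.17 for *Arid1a*, -0.22 to 0.16 for *Arid1b* and -0.11 to 0.071 for *Pbrm1*. By reads they ran from -0.13 to 0.067 for *Smarcb1*, -0.18 to 0.054 for *Smarcc1*, -0.15 to 0.20 for *Arid1a*, -0.093 to 0.24 for *Arid1b* and -0.090 to 0.11 for *Pbrm1*.

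The number of all genes called in IdHPCs was 65, and it was 0 without a filter, 610 with edgeR exactTest, 124 with quasi-likelihood, 494 with DESeq2, 3 without the 3′ exon, 282 with the 3′ exon only and 14 to 825 when 1 library was left out. With a replicate block it was 669 in IdHPCs and 3 by label in LMPPs, and by reads with the labelled genotype as a term 1901 in place of 2089. No subunit gene was called under the block. Libraries with the same number deviated together by a correlation of 0.147 in IdHPCs and 0.705 in LMPPs, over only 2 pairs each.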
